A study of Mus musculus with 2 samples.

Results

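Mir335, Mir483, Mir675, Mir296 and Mir298 are microRNA (miRNA) genes that lie in or beside imprinted genes, and their levels in the neonatal mouse adrenal gland are described here. They were taken by name as 5 of the 2202 miRNA genes in the deposited tables. Mir335 sits in Mest, Mir483 in Igf2, Mir675 in H19, and Mir296 and Mir298 near Gnas. The samples formed 1 group of 2 libraries, from adrenal glands of B6CASTF1/J males at 4 days of age. B6CASTF1/J animals are hybrids of a laboratory strain and a wild-derived strain of mouse, bought from The Jackson Laboratory per the labels. No treatment, mutation or second group was named. Replicate 1 came from male 3 and replicate 2 from male 4, although both entries share 1 donor label. They were taken as 2 animals on the numbers of the males alone, so the spread between them may be partly technical.

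An imprinted gene is transcribed mainly from the copy inherited from 1 parent. In mouse, Mest and Igf2 are active on the paternal copy and H19 on the maternal copy. Igf2 encodes a fetal growth factor that is abundant in the developing adrenal cortex, and H19 is a noncoding RNA controlled by the same region as Igf2. Gnas encodes the G protein subunit that couples the corticotropin receptor to steroid production, and Mir296 and Mir298 are known as paternally expressed members of its cluster in mouse brain. The counts here do not separate the parental copies, so the parental origin of these miRNAs was not measured.

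The 10 mature forms of these genes are shown because they are the RNAs that act on targets. Bases 2 to 8, the seed that pairs with target RNAs, are in capitals. All 5 genes matched RefSeq hairpins on GRCm38, at the same positions as in the GENCODE annotation. The sequences are those of this reference build. Sequence variants in the hybrid animals, and their effect on read alignment, were not examined.
miR-335-5p: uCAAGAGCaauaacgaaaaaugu
miR-335-3p: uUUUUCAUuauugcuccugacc
miR-483-5p: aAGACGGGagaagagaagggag
miR-483-3p: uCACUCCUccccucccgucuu
miR-675-5p: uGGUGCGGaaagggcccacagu
miR-675-3p: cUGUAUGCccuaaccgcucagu
miR-296-5p: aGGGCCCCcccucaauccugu
miR-296-3p: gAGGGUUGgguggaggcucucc
miR-298-5p: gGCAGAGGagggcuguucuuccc
miR-298-3p: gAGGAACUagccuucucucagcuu

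The 10 seeds all differed from each other. None of them occurred at bases 2 to 8 of any other form among the 1738 mature forms in the RefSeq table, so no family mate could be set beside these genes. None of the 10 mature sequences was contained in another RefSeq hairpin. The longest stretch that a hairpin of these genes shared with another hairpin was 12 bases, for Mir298. The other hairpins shared 11 bases at most with any other. A count belonged to the whole precursor gene, so the 5p and 3p arms above were not told apart.

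Levels are given as CPM, the counts of a gene scaled to 1000000 sense-strand miRNA reads in each library. Those reads numbered 3961630 in replicate 1 and 1686822 in replicate 2. Reads that aligned to several loci, 3176275 in replicate 1 and 1684373 in replicate 2, were left out. Shares and ranks below cover reads on 1 locus only. The miRNAs made from several loci may stand too low in them, and the 5 genes too high. The counting error of each level is given as an exact Clopper-Pearson 95% interval. Reads are not independent molecules, so these intervals and all tests between the libraries cover counting error only. The detection limit, set at 3 counts, came to 0.757 CPM for replicate 1 and 1.78 CPM for replicate 2. No count fell on the strand opposite to any of the 5 genes in either library.

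Together the 5 genes held 3.14% of the miRNA counts in replicate 1 and 2.84% in replicate 2. Their summed level was 29941 ± 2112 CPM (SD, n = 2). Mir335 made up 92.4% of this sum in replicate 1 and 80.3% in replicate 2. The other 4 genes summed to 2406 CPM in replicate 1 and 5617 CPM in replicate 2. That difference rests on Mir298, without which the other 3 summed to 1511 CPM in replicate 1 and 1379 CPM in replicate 2.

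**Figure D1:**
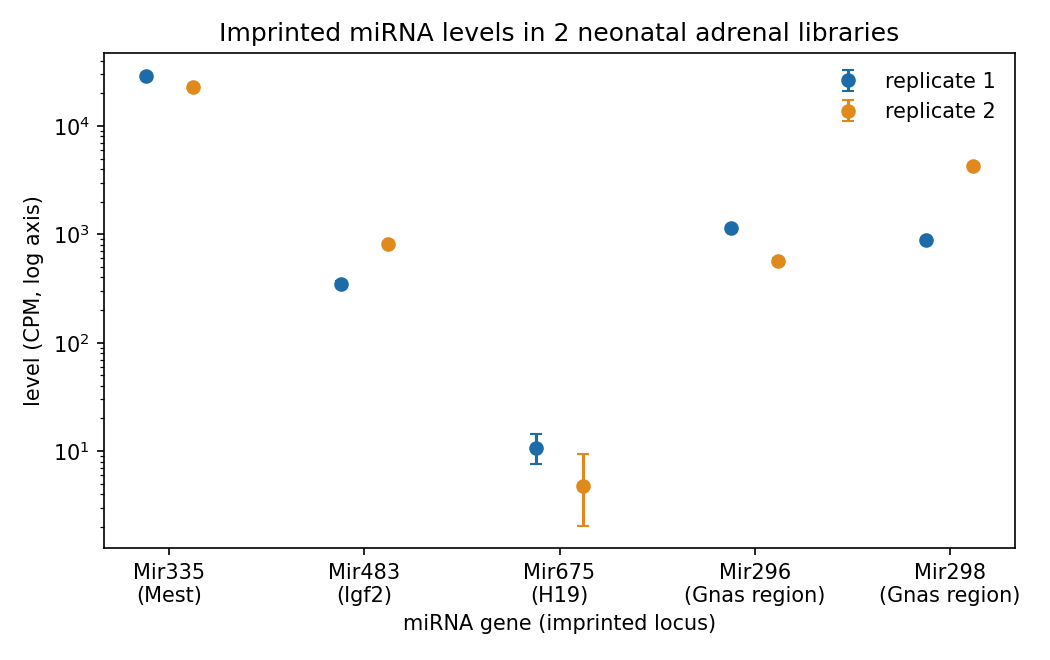
Level of each of the 5 miRNA genes (CPM, log axis) in replicate 1 (blue) and replicate 2 (orange), with exact 95% counting intervals, which are narrower than the points except for Mir675. Mir335 lies at 22831 CPM or above in both libraries and Mir675 at 10.6 CPM or below, while Mir296 and Mir298 change places.

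Mir335 is the miRNA of Mest, a gene for a hydrolase-like protein of growing mesenchymal tissue, and its miRNA is best known from human cancer, where it restrains metastasis of breast tumours. The gene (ENSMUSG00000065501.1) lies on the plus strand of chromosome 6, 30741299 to 30741396 on mm10, within Mest and outside the exons of its 11 annotated transcripts. Mir335 had 115002 counts in replicate 1, or 29029 CPM (28864 to 29195). It had 38512 counts in replicate 2, or 22831 CPM (22606 to 23058). With these levels it ranked 10 among all miRNA genes in replicate 1 and 15 in replicate 2, with reads on several loci left out. The mean was 25930 ± 4383 CPM (SD, n = 2). Replicate 1 was 1.27-fold higher than replicate 2 (exact interval 1.26 to 1.29), beyond counting error but a smaller difference than that of most genes tested.

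Mir483 lies in Igf2, and in human its miRNA rises together with IGF2 in adrenocortical carcinoma. The gene (ENSMUSG00000070140.1) lies on the minus strand of chromosome 7, 142654924 to 142654996, within Igf2 and outside the exons of its 9 annotated transcripts; the overlapping gene Gm49394 has no exon there. It had 1393 counts in replicate 1, or 352 CPM (333 to 371), and 1363 counts in replicate 2, or 808 CPM (766 to 852). The mean was 580 ± 323 CPM (SD, n = 2). Its rank was 145 in replicate 1 and 95 in replicate 2, and the level of replicate 2 was 2.30-fold higher (exact interval 2.13 to 2.48).

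Mir675 is cut from H19 itself, and in mouse it restrains growth of the placenta and lowers the receptor gene Igf1r. It lies on the minus strand of chromosome 7, 142577064 to 142577147 (ENSMUSG00000076275.1), and 3 of 7 annotated H19 transcripts have an exon there. Mir675 was the lowest of the 5 genes, with 42 counts in replicate 1 and 8 in replicate 2. These are 10.6 CPM (7.64 to 14.3) and 4.74 CPM (2.05 to 9.35), above the detection limit of each library. The intervals of the libraries overlap. The mean was 7.67 ± 4.14 CPM (SD, n = 2), and the gene ranked 307 in replicate 1 and 348 in replicate 2.

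Mir296, whose miRNA is studied in human endothelial cells as a regulator of growth factor receptor turnover, lies on the minus strand of chromosome 2, 174267047 to 174267125 (ENSMUSG00000065521.1). Mir298 lies beside it on the same strand, 174267504 to 174267585 (ENSMUSG00000065410.1), and starts 379 bases from the end of Mir296. Neither overlaps another annotated gene. The antisense transcript gene Nespas, on the same strand, lies 14112 bases from Mir296 and 13652 bases from Mir298, and Gnas, on the other strand, 17195 and 16735 bases away. Within 50 kb the only further miRNA gene was Gm27591, which had no count in either library.

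Both hairpins are shown, with their mature arms in capitals, because the results turn on this pair of neighbours.
Mir296: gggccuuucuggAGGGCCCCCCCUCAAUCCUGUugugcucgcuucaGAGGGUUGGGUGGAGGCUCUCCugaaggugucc
Mir298: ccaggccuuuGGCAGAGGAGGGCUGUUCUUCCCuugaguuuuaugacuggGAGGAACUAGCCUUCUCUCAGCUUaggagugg

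Mir296 had 4551 counts in replicate 1, or 1149 CPM (1116 to 1183), and 955 counts in replicate 2, or 566 CPM (531 to 603). Mir298 had 3544 counts in replicate 1, or 895 CPM (865 to 925), and 7149 counts in replicate 2, or 4238 CPM (4141 to 4337). Mir296 was thus the higher of the pair in replicate 1 and Mir298 in replicate 2. The mean level was 858 ± 412 CPM for Mir296 and 2566 ± 2364 CPM for Mir298 (SD, n = 2 each). Mir296 ranked 81 in replicate 1 and 115 in replicate 2, whereas Mir298 ranked 98 in replicate 1 and 43 in replicate 2.

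By mean level the order was Mir335, Mir298, Mir296, Mir483 and Mir675. Mir335 exceeded Mir298 by 32.4-fold in replicate 1 and 5.39-fold in replicate 2. The values of Mir298 and Mir296 overlapped, as did those of Mir296 and Mir483, so these neighbours in the order did not differ beyond the spread of the libraries. Mir483 exceeded Mir675 by 33.2-fold in replicate 1 and 170-fold in replicate 2, with no overlap. The order is one of read counts per precursor gene.

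To see how far the libraries differed, the 404 genes that reached 10 counts in 1 library or both were tested, each with a two-sided exact binomial test against the ratio of the library totals. Calls needed a p under 0.05 after Benjamini-Hochberg adjustment over all 404 genes, and a log2 ratio of replicate 1 over replicate 2, on CPM + 0.5, above 1 or below -1. The test compares these libraries, not conditions. Of the 5 genes, 2 were higher in replicate 1, 2 were lower and 1 was not called. Over all genes tested, 18.3% were called, with 8.66% higher and 9.65% lower in replicate 1. Among the 210 genes with a mean of at least 100 CPM, 15.2% were called, and 3 of the 4 genes described here at that level were among them. The 5 genes were chosen with such results known, so their number of calls supports nothing by itself.

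Mir298 had the largest difference of the 5, with a log2 ratio of -2.24 (exact interval -2.30 to -2.19), and ranked 21 by size among the 404 genes. Its exact p was too small for the computation to represent. Mir483 followed with -1.20 (-1.31 to -1.09; exact test, adjusted p = 1.49e-101), and Mir675 had 1.08 (0.05 to 2.46; exact test, adjusted p = 0.0495). Mir296 had 1.02 (0.92 to 1.12; exact test, adjusted p = 2.06e-100). The calls of Mir675 and Mir296 stood close to the thresholds and were lost under other settings. With CPM + 5, Mir675 had a log2 ratio of 0.68, and with library totals that leave out the hepatocyte, erythroid and striated muscle markers Mir296 came to 1.00.

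Counting error leaves out the variation between animals. The common dispersion of edgeR, estimated over both libraries as 1 group, corresponds to a biological coefficient of variation of 0.394. With that dispersion in edgeR's exactTest, 8 of the 404 genes were called and none of the 5. The unadjusted p was under 0.05 for 29 genes, among them Mir298 (edgeR exactTest, p = 0.00883, adjusted p = 0.297). The adjusted p of the other 4 genes was 0.990 or above in that test. The dispersion itself contains the differences it is set against.

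**Figure D2:**
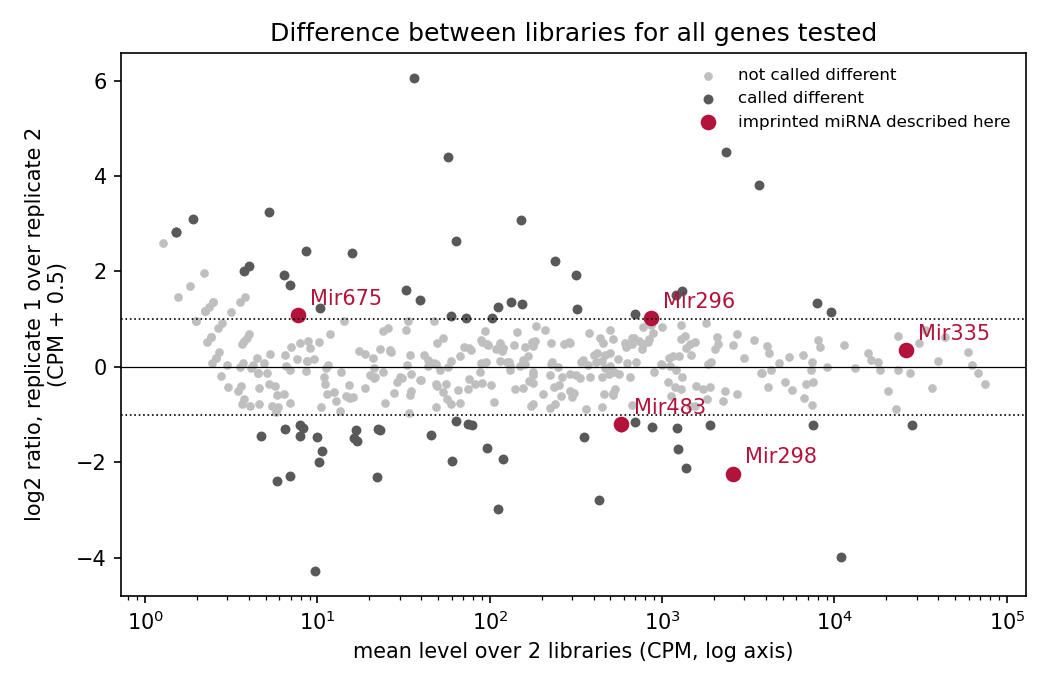
Log2 ratio of replicate 1 over replicate 2 (CPM + 0.5) against the mean level (CPM, log axis) for the 404 genes tested, with the 5 imprinted miRNAs in red, other called genes in dark grey and dotted lines at 1 and -1. Mir298 stands well below -1, Mir483 below it, Mir296 and Mir675 just above 1, and Mir335 near 0.

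The ratio between 2 genes of the same library does not depend on how libraries are scaled. Mir296 counts were 1.28 times those of Mir298 in replicate 1 and 0.134 times in replicate 2. This ratio of neighbours therefore differed 9.61-fold between the libraries. On the log2 scale the difference was 3.26, with an exact interval of 3.15 to 3.38. At the chromosome 7 locus, Mir483 counts were 33.2 times those of Mir675 in replicate 1 and 170 times in replicate 2, a log2 difference of -2.29 (-3.67 to -1.24). The wide interval follows from the 8 counts of Mir675 in replicate 2.

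In all, 10 pairs of the 5 genes were compared. The exact interval of the difference left out 0 for 8 of them. The ratio of Mir675 to Mir296 differed by 0.07 on the log2 scale (-0.97 to 1.45) and that of Mir335 to Mir675 by -0.74 (-2.12 to 0.29). Both intervals include 0, and both pairs hold Mir675, the gene with the fewest counts. Between genes of different loci, Mir335 over Mir298 differed by 2.59 (2.53 to 2.65) and Mir483 over Mir296 by -2.22 (-2.37 to -2.07). Mir335 and Mir296, at different loci, kept closer to each other, with -0.67 (-0.78 to -0.57). Mir483 and Mir298, both higher in replicate 2, differed by 1.04 (0.92 to 1.17).

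**Figure D3:**
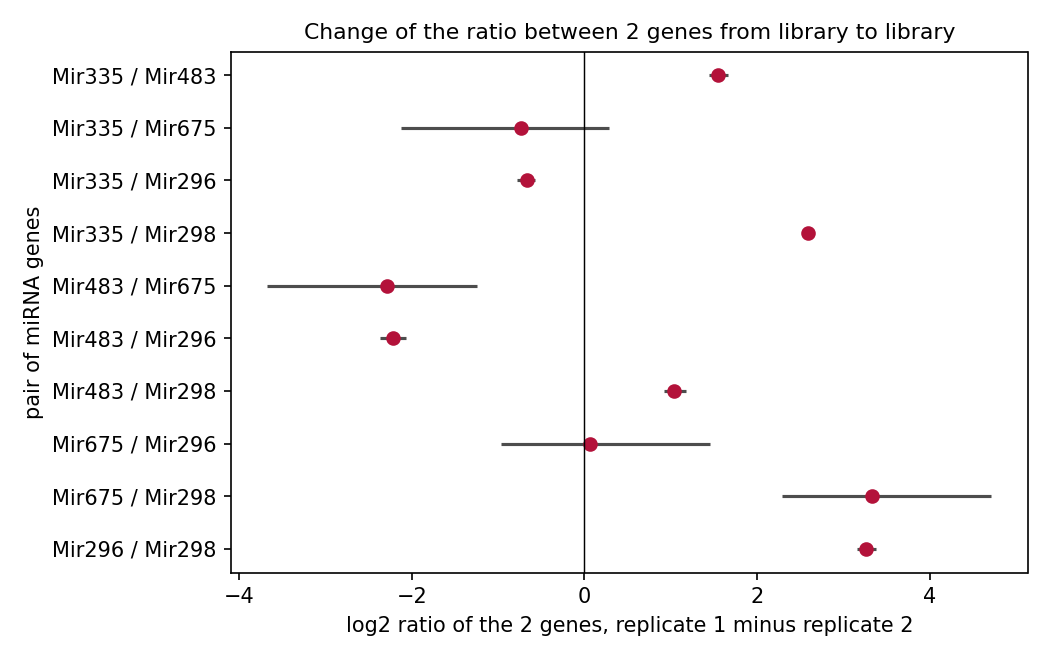
Difference between replicate 1 and replicate 2 in the log2 ratio of each pair of the 5 genes (points, counts + 0.5), with exact 95% intervals (lines). The pair of neighbours Mir296 and Mir298, at the bottom, differs by 3.26, and only the intervals of Mir335 with Mir675 and of Mir675 with Mir296 include 0.

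Neighbouring miRNA genes are often cut from 1 primary transcript, and the change of Mir296 against Mir298 was set beside that of other neighbours. This comparison was chosen after the values had been seen. Adjacent miRNA genes on the same strand, at most 10 kb apart and with at least 10 counts in both libraries, formed 99 pairs. The pairs are not independent, because a gene with neighbours on both sides entered a pair with each. Many of the pairs lie in the Dlk1-Dio3 region. The log2 ratios of replicate 1 over replicate 2 differed within a pair by a median of 0.44. Taken singly, the 404 genes tested had ratios with a median size of 0.50. That value does not concern pairs and is no baseline for the 0.44. In 37 of the 99 pairs the neighbours had ratios of opposite sign. Genes far apart were not paired in the same way, so whether neighbours moved together more than other genes was not tested. The difference of 3.26 between Mir296 and Mir298 was the largest of the 99. The next largest was 2.54, between Mir487b (17807 and 17690 counts in replicates 1 and 2) and Mir539 (872 and 148 counts) of the Dlk1-Dio3 region. These were the 2 pairs in which the neighbours were called in opposite directions, and 3 pairs in all (3.03%) differed by more than 2.

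**Figure D4:**
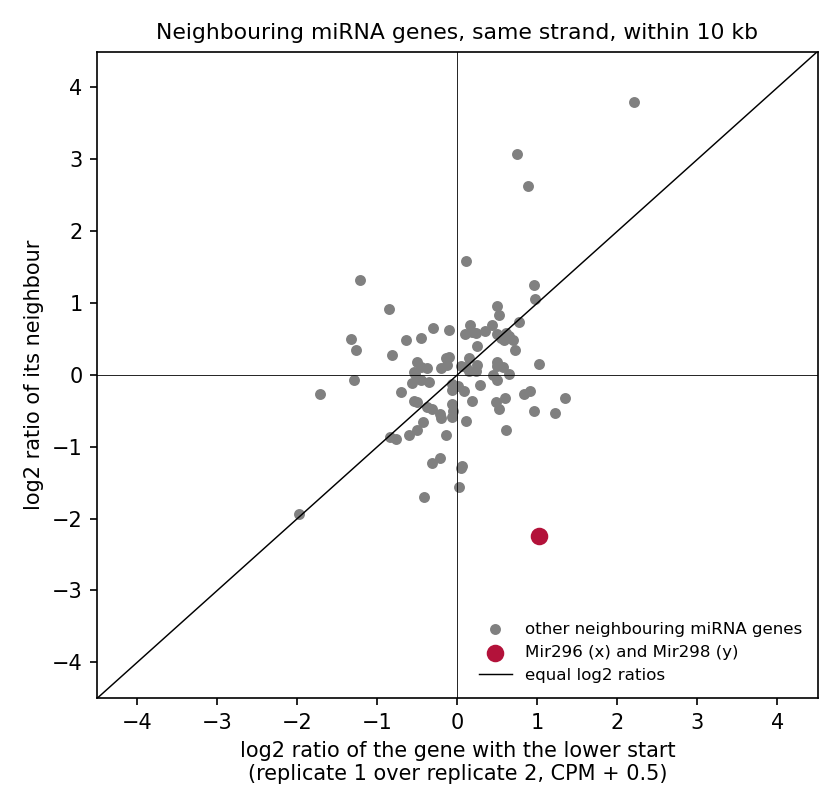
Log2 ratio of replicate 1 over replicate 2 (CPM + 0.5) for both genes of 99 neighbouring pairs on the same strand, with the diagonal of equal ratios. Most pairs lie near the diagonal, while Mir296 (1.02) and Mir298 (-2.24) lie in the lower right, farther from it than any other pair.

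The hairpins of these genes were compared with the 295 detected genes that matched a RefSeq hairpin, as a description. Mir296 and Mir675 were rich in G and C, with 63.3% and 63.1%, at percentiles 92.9 and 92.5 of the detected hairpins. Mir483 had 58.9%, Mir298 53.7% and Mir335 42.9%. Mir675 folded most stably, with a computed energy of -0.667 kcal/mol per base against a median of -0.433, and only 0.678% of the detected hairpins were as stable. Mir296 and Mir298 were alike in this, at -0.547 and -0.521 per base. Across the 295 genes, GC content and the log2 ratio had a Spearman rho of -0.02, over points that share both libraries.

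Markers of other cell types differed between the libraries as well. Mir122, the miRNA of hepatocytes, had 1299 CPM in replicate 1 and 20602 CPM in replicate 2. Red cell miRNAs summed to 7248 CPM in replicate 1 and 595 CPM in replicate 2, with 2 of 3 called. The 8 striated muscle genes summed to 1143 and 2697 CPM in replicates 1 and 2, with all 3 tested called and 1 gene without a count. Mir206 alone gave 1130 and 2646 CPM of these sums. Markers with copies at several loci, such as Mir1a-1 and Mir1a-2, may be undercounted, because reads on several loci were left out. The same holds for Mir194-1 and Mir194-2 of kidney and for Mir7-1 and Mir7-2 below. Of the 5 kidney genes, 2 were higher in replicate 1 and 2 lower, in sums of 241 and 379 CPM. Of 4 leukocyte genes 1 was lower in replicate 1, in sums of 858 and 1338 CPM. The called red cell genes were Mir451a and Mir144, both higher in replicate 1, while Mir486 had 12.4 CPM in replicate 1 and 19.6 CPM in replicate 2. Mir298 and Mir483 were lower in replicate 1, as were Mir122 and the called muscle genes, and Mir296 and Mir675 were higher, as were Mir451a and Mir144. The other called markers also went both ways. Leukocyte Mir223 and kidney Mir192 and Mir194-2 were lower in replicate 1. Kidney Mir215 and Mir194-1 and endocrine Mir7-2 were higher. Among the 74 genes called over the whole test, 39 were lower and 35 higher in replicate 1, so a shared direction was common. The part of other cells in these differences was not tested, and fewer cells of a type and less RNA per cell cannot be told apart. The endocrine markers Mir375, Mir7-1, Mir7-2 and Mir7b summed to 36299 and 46670 CPM in replicates 1 and 2, with Mir7-2 called higher in replicate 1. Endothelial Mir126a (65222 and 83391 CPM) and the stromal markers Mir143 and Mir145a (summed, 42282 and 38444 CPM) were not called.

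The other large imprinted miRNA clusters were set beside these genes. The 67 miRNA genes between Dlk1 and Dio3, a region whose miRNAs come from the maternal copy, held 11.99% of the counts in both libraries; their summed level had an SD of 21.2 CPM, and of 6316 CPM under TMM scaling. Of 53 tested, 3 were higher and 3 lower in replicate 1, which is 11.3% against 18.3% over all genes tested, and their median log2 ratio was 0.06 against 0.05 over all genes tested. The highest were Mir411 with 27504 ± 1828 CPM and Mir127 with 16276 ± 1152 CPM (SD, n = 2 each), and neither was called. Mir411 was thus close in level to Mir335. Of the 119 miRNA genes inside Sfmbt2, a paternally expressed gene of the placenta, 19 had a count and 9 were tested. None was higher and 2 were lower in replicate 1, which is 22.2% against the same 18.3%, and the list held 0.167% ± 0.0230 of the counts (SD, n = 2). The median log2 ratio of the 9 tested was nevertheless 0.29, against 0.05 over all genes tested. The whole list summed to 1831 CPM in replicate 1 and 1506 CPM in replicate 2. The highest were Mir467d with 666 ± 195 CPM and Mir467e with 498 ± 70.0 CPM. Many Sfmbt2 miRNAs are near copies of each other, so their counts are uncertain. Whether the 5 genes differ from these clusters was not tested.

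The genes most like each of the 5 were sought by the distance between log2(CPM + 0.5) values over the 2 libraries. Nearest to Mir335 were Mir23a (distance 0.33), Mir23b (0.35) and Mir99a (0.36). Mir483 had a close match in Mir501 (0.06), with 339 CPM in replicate 1 and 820.5 CPM in replicate 2, ahead of Mir132 (0.40) and Mir770 (0.43). Mir296 was nearest to Mir130b (0.10), Mir195a (0.22) and Mir18 (0.26). Mir675 was nearest to Mir1291 (0.46), Mir3547 (0.47) and Mir190b (0.54). Mir298 had no close match, since its nearest gene was Mir206 of striated muscle at 0.76, with 1130 CPM in replicate 1 and 2646 CPM in replicate 2. Mir674 (1.11) and Mir342 (1.13) came next. With 2 libraries, such likeness rests on 2 values per gene.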

How the data were processed

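Small RNA libraries were made from total RNA with a size range under 30 nucleotides, per the labels. The deposited tables hold read counts per miRNA gene in 3 columns (either strand, then 1 strand each) below 4 summary rows, 1 table per library. Build mm10 and annotation M21 are named in the deposited file lists; aligner, trimming and filters are not given in the sources used here. Reads on several loci, outside miRNA genes or unaligned stayed out of totals (66.3% of replicate 1, 74.3% of replicate 2).

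Levels use the strand with the larger total, called sense. All 2202 identifiers matched GENCODE M21. The binomial test covered counting error, and intervals of gene ratios came from the conditional odds ratio. Fisher p-values over pairs are not printed, because the genes were chosen with results known. Likewise members, lists and tests were chosen with earlier results of these data known. Named genes are the 5 members, the 3 nearest in level to each, miRNA genes within 50 kb, the 2 highest of each imprinted list and cell type markers; Mir487b and Mir539 were added after their values were seen. Alternatives were other scalings (TMM, DESeq2 size factors), columns, filters, added CPM and an edgeR dispersion. The binomial test was tested on simulated data. Tools were R 4.3.3, edgeR 4.0.16, DESeq2 1.42.0, Python 3.11.15, scipy 1.17.1, pandas 2.3.3, numpy 2.4.6 and RNAfold 2.7.2.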

Additional observations from a re-analysis of the deposited data

How the results depend on the processing

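Of 101 alternatives for 25 results, 85 kept direction and side of the threshold, or stayed within the spread; many could hardly move, since 2 libraries left out in turn stay within 1 SD of the mean (5 genes summed: 28448 to 31435 CPM) and the 5 genes have equal counts in both columns. TMM and DESeq2 scaling moved log2 ratios by 0.11 and called 79 genes, with the same 4 members. The call of Mir675 was lost in the either-strand column (log2 ratio 1.08, adjusted p = 0.0664, exact test), with CPM + 5 (0.68) and without the hepatocyte, erythroid and striated muscle markers in the totals (1.06), a setting chosen after seeing the data, under which Mir296 (1.00) was lost too. With the edgeR dispersion in its exactTest, 8 genes were called in place of 74, and the calls of Mir483 (-1.20), Mir675 (1.15), Mir296 (1.02) and Mir298 (-2.24) were lost (adjusted p from 0.297 to 1.000). Without a threshold on size, 251 of the 404 genes tested were called (131 higher, 120 lower in replicate 1). All 5 members were among them, as were most genes tested. The either-strand column, whose totals lack overlapping genes, gave 34184 CPM for the 5 genes, 124499 for Dlk1-Dio3 and 1905 for Sfmbt2. Dlk1-Dio3 came to 119977 CPM under TMM and 119978 under DESeq2 scaling (SD 6316 and 6326, against 21.2), so its even share rests on scaling by totals. Mir675 over Mir296 reversed to -0.39 with counts + 5, inside its interval. Depth limits Mir675 most, with 8 counts in replicate 2. No paired analysis was possible because there was 1 group.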
